A study of Mus musculus with 20 samples.

Results

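The chemokine ligand genes are the genes of the C, CC, CXC and CX3C families of small secreted attractants, found here by symbols that begin with Ccl, Cxcl, Cx3cl or Xcl and a digit. Of 31055 features, 44 matched, and 33 genes with at least 10 UMIs (unique molecular identifiers, counted transcripts) over both matrices were kept, 20 of them Ccl genes, 11 Cxcl genes, Cx3cl1 and Xcl1. They held 379425 UMIs. Of the 11 rows left out, 8 had no UMI and the others were Cxcl17 with 9, Ccl12 with 4 and Ccl21c with 1. The kept members nearest the minimum were Ccl24 with 15, Ccl28 with 19 and Cxcl13 with 35.

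Cells came from mouse dorsal skin labelled as epidermis in anagen, when hair follicles grow. Control mice carried the tamoxifen-driven Cre line Nfatc1-CreER with R26R and the mTmG membrane reporter (4 listed samples), and Mutant mice carried the same alleles and were also Fgf5-/- (16 listed samples). Both groups received tamoxifen for 3 days, starting on postnatal day 21 or 22 in Control and on day 23 or 24 in Mutant, so age at treatment moved with genotype, and neither the labels nor the files give the age at harvest. Nfatc1-CreER acts in hair follicle bulge stem cells among other Nfatc1-expressing cells, whereas the labels do not tie the Fgf5 alleles to Cre activity. All samples of a group shared 1 matrix with no map from cells to samples, so each group counts as 1 library, no p-value was computed, and every interval covers counting error only. Fgf5 itself was detected in both libraries, at 12.1 CPM (counts per 1000000 UMIs) in Control and 9.13 CPM in Mutant. The labels do not say which part of Fgf5 is altered, so tags from the 3' end do not check the genotype.

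Chemokines bind receptors on the surface of leukocytes and guide them along concentration gradients. In skin, keratinocytes, fibroblasts and vessels make distinct sets of them, some all the time (such as CXCL14, CCL27 and CXCL12) and others after injury or cytokine signals through NF-kB or interferon pathways (such as CXCL1, CCL2, CCL20 and CXCL10). The ligand and the cells that carry its receptor are usually different cell types, so the data are described by class of cell.

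Sequence before the transcription start is shown for Ccl20, which had the largest ratio among the 38 pairs of member and class at 100 CPM described below, for Cxcl1, Cxcl2 and Cxcl10, textbook targets of NF-kB, and for Cxcl14, which differed in the opposite direction to Ccl20. Each is the 250 bases before the annotated start, written 5' to 3' along the gene's strand and taken from RefSeq on GRCm38.p6. Capitals mark matches to the NF-kB-like pattern GGGNNNTTCC or its reverse complement GGAANNNCCC, with overlapping matches joined.
Ccl20: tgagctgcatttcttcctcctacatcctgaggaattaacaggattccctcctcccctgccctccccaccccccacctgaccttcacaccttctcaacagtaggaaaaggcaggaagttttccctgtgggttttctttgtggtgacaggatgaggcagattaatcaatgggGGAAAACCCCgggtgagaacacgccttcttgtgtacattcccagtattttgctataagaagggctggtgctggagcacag
Cxcl1: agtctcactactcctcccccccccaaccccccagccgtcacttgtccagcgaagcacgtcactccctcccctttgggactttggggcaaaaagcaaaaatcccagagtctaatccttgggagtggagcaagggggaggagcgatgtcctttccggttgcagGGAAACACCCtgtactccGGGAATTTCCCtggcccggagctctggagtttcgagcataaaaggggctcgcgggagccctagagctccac
Cxcl2: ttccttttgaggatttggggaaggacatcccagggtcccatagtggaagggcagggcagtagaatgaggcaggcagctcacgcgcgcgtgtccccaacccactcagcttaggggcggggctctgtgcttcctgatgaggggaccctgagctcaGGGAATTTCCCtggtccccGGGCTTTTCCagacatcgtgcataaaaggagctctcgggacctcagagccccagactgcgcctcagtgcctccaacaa
Cxcl10: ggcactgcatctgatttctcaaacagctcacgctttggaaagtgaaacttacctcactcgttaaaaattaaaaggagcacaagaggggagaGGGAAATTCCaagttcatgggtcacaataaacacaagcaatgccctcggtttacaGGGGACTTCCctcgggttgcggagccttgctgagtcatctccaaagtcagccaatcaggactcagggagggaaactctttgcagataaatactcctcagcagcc
Cxcl14: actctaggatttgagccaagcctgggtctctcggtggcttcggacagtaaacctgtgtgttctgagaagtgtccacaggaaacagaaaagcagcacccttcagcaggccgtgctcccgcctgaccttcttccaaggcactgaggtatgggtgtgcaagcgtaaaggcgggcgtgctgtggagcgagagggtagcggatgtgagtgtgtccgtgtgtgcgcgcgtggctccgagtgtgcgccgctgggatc
They lie at chr1:83116516-83116765 on the plus strand (Ccl20), chr5:90890995-90891244 on the plus strand (Cxcl1), chr5:90903649-90903898 on the plus strand (Cxcl2), chr5:92348890-92349139 on the minus strand (Cxcl10) and chr13:56296552-56296801 on the minus strand (Cxcl14). Ccl20 has 1 match, which begins 80 bases before the start. Cxcl1, Cxcl2 and Cxcl10 have 2 each, and Cxcl1 and Cxcl2 share the joined match GGGAATTTCCC. No match is in the Cxcl14 window. Of the 25 kept members with a RefSeq entry, 7 (28%) hold a match in at least 1 entry. Counted by window, 7 of their 31 entries (22.6%) hold one, beside 1527 of all 32851 promoter windows of the same length (4.65%). The others are Ccl1, Ccl9 and Cxcl3, and Cxcl3 carries the same joined match as Cxcl1 and Cxcl2. Cxcl1, Cxcl2 and Cxcl3 are related neighbouring genes, so their matches are not independent. A match describes letters and is not a bound site.

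**Figure D1:**
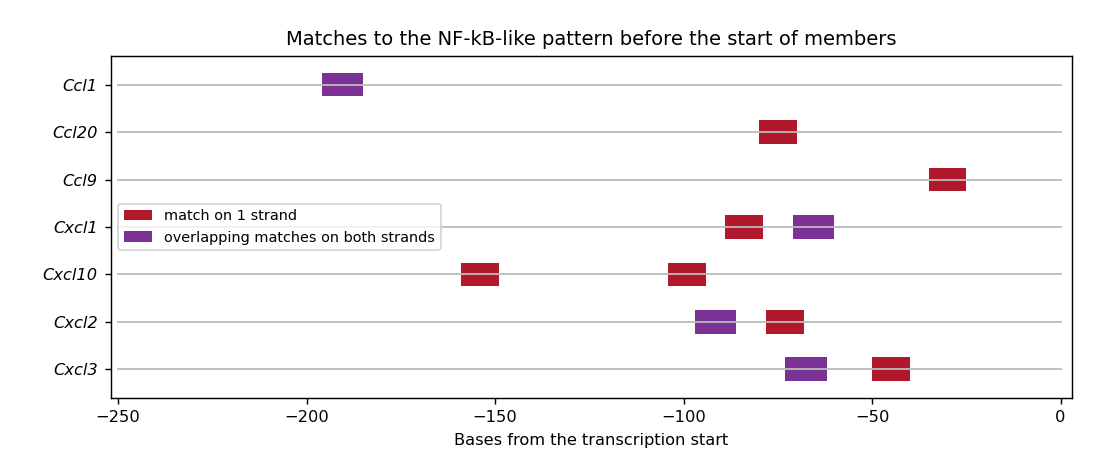
Position of matches to the pattern in the 250 bases before the transcription start (horizontal axis, bases from the start) for the 7 kept members that hold any (rows). Red boxes are matches on 1 strand and purple boxes are overlapping matches on both strands, and all but those of Ccl1 and Cxcl10 begin within 100 bases of the start.

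After filtering, 13640 Control cells (128858259 UMIs, median 5569 per cell) and 11043 Mutant cells (88185821 UMIs, median 6000) remained. The median mitochondrial share was 3.21% in Control and 4.92% in Mutant, and its part in any difference below was not tested. The libraries shared 59 cell barcodes, and only 1 of these had its own counterpart as its closest profile. Classes were built by clustering without the members and named from marker sets, so each name stands for cells like that type. The 11 classes that held 200 or more cells of both libraries were interfollicular basal keratinocytes (968 Control and 1279 Mutant cells), interfollicular suprabasal keratinocytes (209 and 451), sebaceous gland (206 and 273), outer root sheath (2681 and 1193), hair matrix (1557 and 2237), inner root sheath (731 and 247), hair cortex or cuticle (326 and 206), melanocytes (1342 and 1474), dermal papilla (509 and 334), fibroblasts (474 and 621) and dendritic epidermal T cells (2341 and 1085). Although labelled epidermis, the cells therefore included dermal types.

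A ratio was called large, and is written as a rise or fall, when Mutant and Control differed at least 2-fold, the nearer bound of the exact 95% interval lay beyond 1.5-fold, and the higher library had at least 100 CPM. Members reached 100 CPM in 38 pairs of member and class, of which 9 rose and 5 fell (36.8%). Over all genes, 920 of 17659 such pairs rose and 953 fell (10.6%). The large ratios involved 8 members, namely Ccl2, Ccl7, Ccl20, Ccl27a, Cxcl2, Cxcl10, Cxcl14 and Cxcl16. Summed over all members the level hardly differed, at 1674 CPM in Control and 1596 CPM in Mutant, and all 33 members had UMIs in both libraries. By class, a large ratio was found for 3 of 5 members in basal (19% of all genes there), 3 of 5 in suprabasal (22.1%), 3 of 4 in dermal papilla (17.8%), 2 of 8 in fibroblasts (5.9%), 1 of 4 in sebaceous gland (14.3%), 1 of 7 in outer root sheath (2.73%) and the 1 member in inner root sheath (3.91%). It was found for none of 2 in hair matrix (3.91%), nor for the single member at 100 CPM in hair cortex or cuticle (5.63%) and in dendritic epidermal T cells (13.2%). No member reached 100 CPM in melanocytes.

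**Figure D2:**
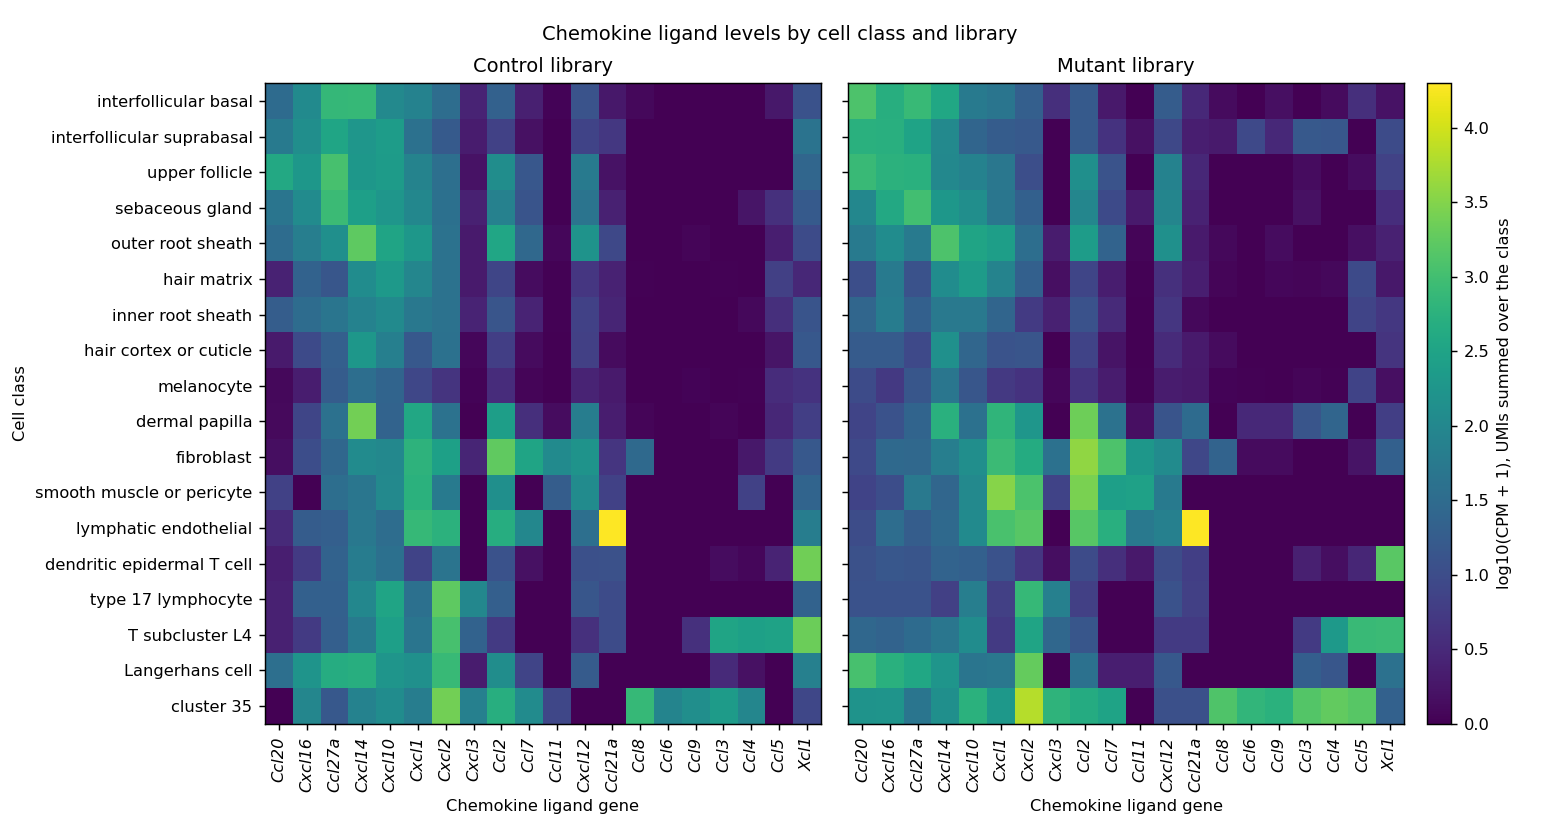
Level of the 20 members that reached 100 CPM in any class of at least 30 cells, as log10(CPM + 1) of UMIs summed over each class (rows) in the Control (left) and Mutant (right) library. Ccl21a stands out in the lymphatic endothelial row at 19438 and 19806 CPM, Xcl1 is high in the lymphoid rows, and the basal and suprabasal rows differ most between panels at Ccl20.

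Ccl20 encodes the only known chemokine ligand of CCR6, the receptor of type 17 lymphocytes and of some dendritic cells. In interfollicular basal keratinocytes, the dividing layer of the epidermis, Ccl20 was at 31.4 CPM in Control (281 UMIs, interval 27.9 to 35.3) and 1254 CPM in Mutant (10381 UMIs, interval 1230 to 1278). That was a rise of 5.32 on the log2 scale (interval 5.15 to 5.49). Suprabasal keratinocytes, the differentiating layers above, went from 54.9 to 546 CPM, a rise of 3.31 (3.02 to 3.62). Ccl20 was thus higher in the Mutant library in both epidermal layers. In the upper follicle, a smaller class of 138 and 271 cells around the follicle opening, Ccl20 was already at 396 CPM in Control and was at 815 CPM in Mutant. Sebaceous gland cells had 46.4 and 98.1 CPM, and outer root sheath cells 32.6 and 57.9 CPM, both below the level minimum. Among these keratinocyte classes the order in Mutant was therefore basal, upper follicle and suprabasal, with the sebaceous gland and outer root sheath far below. In Control the upper follicle led. Classes not known to make CCL20 set the background, with melanocytes at 0.219 and 8.67 CPM and fibroblasts at 0.447 and 8.0 CPM.

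Not every basal cell carried the Ccl20 signal. With each cell thinned to 1500 UMIs to equalise depth, 23 of 932 Control basal cells (2.47%, Clopper-Pearson interval 1.57 to 3.68) and 309 of 1273 Mutant basal cells (24.3%, 21.9 to 26.7) had a Ccl20 UMI. Without thinning the shares were 10.1% and 33.2%, at median depths of 5252 and 4813 UMIs per cell. In melanocytes, at medians of 13948 and 13001 UMIs, 0.298% and 2.58% of cells had a Ccl20 UMI. The 5% of basal cells with most Ccl20 held 56.9% of its UMIs in Mutant and 82.6% in Control. Leaving these cells out of both libraries gave 6.49 and 589 CPM, so the rise did not rest on a few cells. The share of suprabasal cells with a UMI was 5.94% and 14.1% after thinning and 20.6% and 23.3% before it, and there the highest 5% of Mutant cells held 73.4% of the UMIs.

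Basal cells fell into 2 clusters that followed the libraries almost completely, one with 939 Control and 47 Mutant cells and one with 29 Control and 1232 Mutant cells. In the first Ccl20 was at 29.5 CPM in Control cells and 61.9 CPM in Mutant cells, the latter from 17 UMIs. In the second it was at 126 CPM in Control cells (23 UMIs) and 1295 CPM in Mutant cells. Mutant cells were higher within both clusters, but cluster and library cannot be told apart for most basal cells. The mean score for proliferation markers, relative to all clusters, was 0.65 in the first cluster and -0.58 in the second. The part of this difference in the Ccl20 ratio was not tested. The second cluster was led by Tslp, Epgn, Igfbp3, Ccl20, Ptgs2 and Serpinb2, which include a keratinocyte cytokine, a growth factor and the inducible prostaglandin synthase. Over all genes at 100 CPM in basal cells, 9.06% rose and 9.93% fell by the same rule, so 2 of 5 members rising and 1 falling stood among many differences in that class. In suprabasal cells 2 of 5 members rose and 1 fell, beside 11.6% and 10.4% of all genes.

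Cxcl16 encodes a membrane-bound chemokine that is shed from the cell surface and binds CXCR6. It rose in all 3 classes of the interfollicular epidermis and sebaceous gland. In basal cells it was at 114 CPM in Control and 494 CPM in Mutant, a rise of 2.12 (2.02 to 2.22). In suprabasal cells it was at 132 and 513 CPM, a rise of 1.95 (1.76 to 2.16). Sebaceous gland cells had 117 and 396 CPM, a rise of 1.76 (1.57 to 1.95), and Cxcl16 was the 1 member of 4 that rose there, beside 4.63% of all genes. Unlike Ccl20, Cxcl16 was spread over many cells, since after thinning 15.6% of Control and 48.9% of Mutant basal cells had a UMI (43.6% and 84.6% before), and 11.9% and 52.5% of suprabasal cells. The highest 5% of Mutant suprabasal cells held 16.6% of the UMIs. Below the size rule the same direction appeared along the follicle, with 67.4 and 121 CPM in the outer root sheath, 21.9 and 56.2 CPM in hair matrix and 32.3 and 63.3 CPM in inner root sheath. Upper follicle cells had 185 and 568 CPM. Melanocytes, as background, had 1.21 and 4.18 CPM, with a UMI in 0.336% and 0.884% of thinned cells. Within the 2 basal clusters Cxcl16 was at 113 and 164 CPM in the mostly Control one and at 175 and 505 CPM in the mostly Mutant one.

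Both transcripts were looked for in the same cells. Of 1273 thinned Mutant basal cells, 165 had a UMI of Ccl20 and of Cxcl16, where the product of the 2 shares gives 151 cells. In Mutant suprabasal cells 37 of 446 had both, where the product gives 33.0 cells. Joint detection in Mutant was thus near what the separate shares give. In Control 8 basal cells had both, where the product gives 3.58, and 3 suprabasal cells, where it gives 1.43. Those Control counts were above the product but small.

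**Figure D3:**
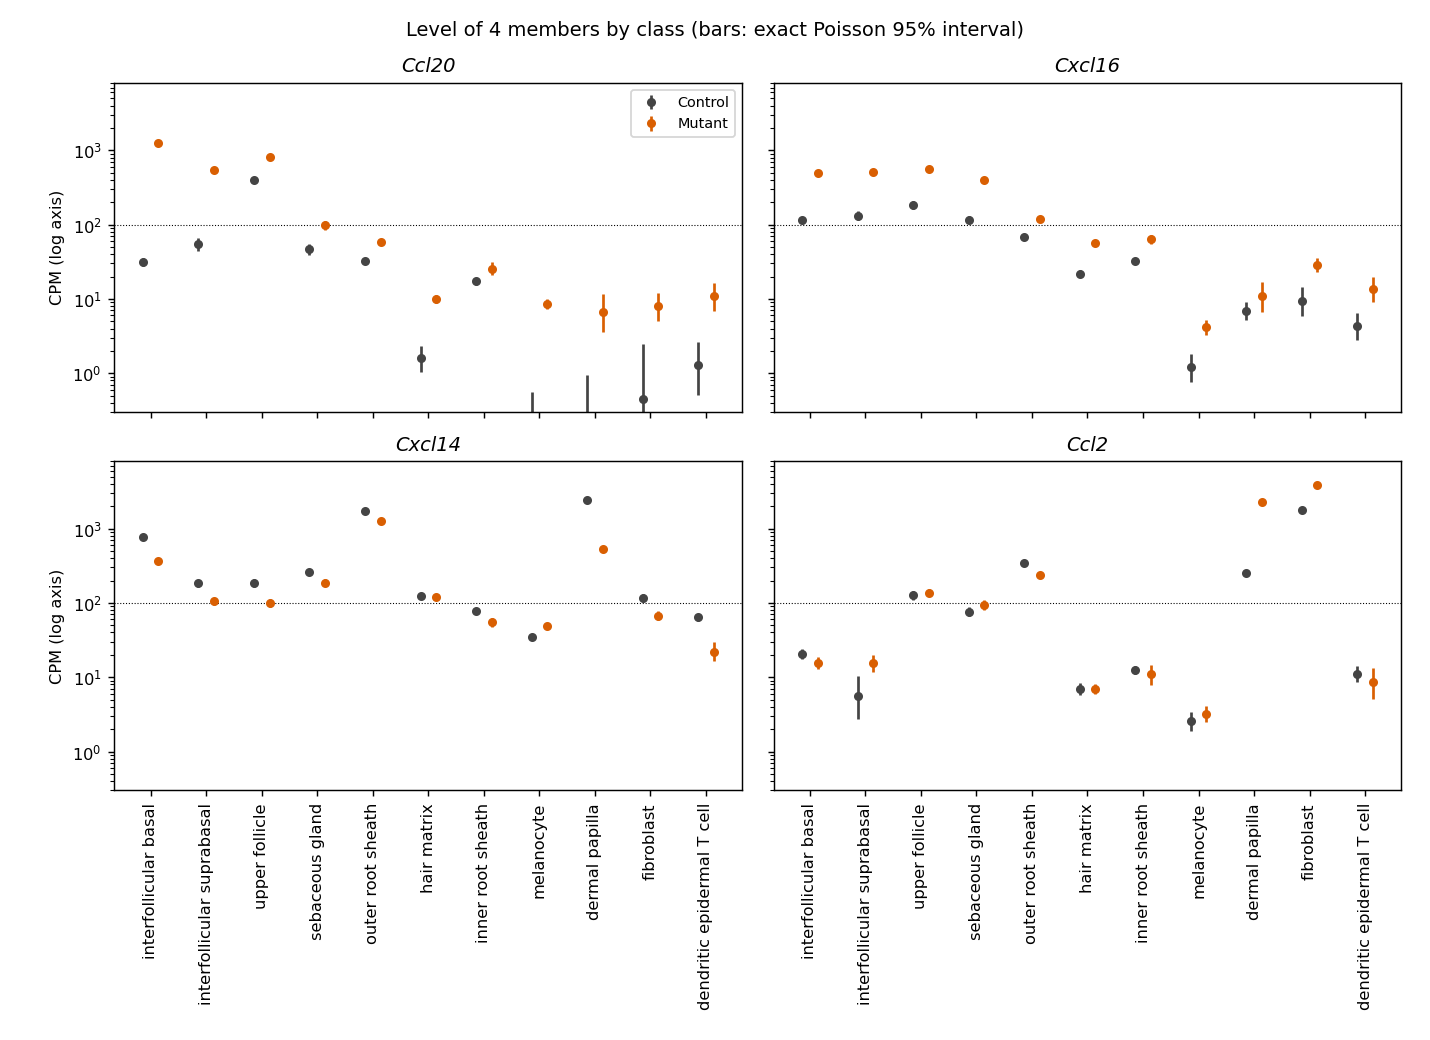
Level in CPM (log axis) of Ccl20, Cxcl16, Cxcl14 and Ccl2 in 11 classes, Control in grey and Mutant in orange, with exact Poisson 95% intervals and a dotted line at 100 CPM. Ccl20 in Control melanocytes and dermal papilla lies below the axis and only its upper bound is drawn. Mutant points lie above Control points in every class shown for Ccl20 and Cxcl16, and below them for Cxcl14 in all but the melanocytes.

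Cxcl14, a chemokine made constitutively by epithelia, was the most abundant member over all cells, with 80930 Control and 22500 Mutant UMIs. Dermal papilla cells, the mesenchymal signalling centre at the base of the follicle, had 2437 CPM in Control (18329 UMIs) and 530 CPM in Mutant (1019 UMIs). Cxcl14 thus fell there, with a log2 ratio of -2.20 (-2.29 to -2.11). After thinning 81.3% of Control and 36.1% of Mutant papilla cells had a UMI (88.6% and 56.0% before). As background, melanocytes had 34.6 and 48.5 CPM of Cxcl14, with a UMI in 24.4% and 30.9% of cells before thinning. Both papilla clusters showed it, with 1461 and 394 CPM in the one of 334 and 286 cells, and 3573 and 777 CPM in the one of 175 and 48 cells. In basal keratinocytes Cxcl14 went from 766 to 361 CPM and from 63.3% to 40.5% of thinned cells. Its log2 ratio there was -1.09 (-1.15 to -1.02). It was under 2-fold with TMM scaling (-0.77), DESeq2 scaling (-0.78), separate clustering of the libraries (-0.76) and clusters formed without genes of large ratio (-0.93). The mostly Control basal cluster had 770 and 302 CPM and the mostly Mutant one 569 and 363 CPM, so Mutant cells were lower within each.

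Outer root sheath cells, the outer epithelial sleeve of the follicle, held 48.5% of all Control Cxcl14 UMIs and 44.7% of all Mutant ones, at 1720 and 1266 CPM. That ratio of -0.44 was not large. Hair matrix, the proliferating cells that build the shaft, had 123 and 120 CPM. Levels in suprabasal, sebaceous gland and cortex or cuticle cells were 183 and 105, 262 and 188, and 191 and 142 CPM, none of them large. The suprabasal ratio of -0.80 was 0.79 when clusters were formed without genes of large ratio. The class named suprabasal then held only 38 Control and 130 Mutant cells. An unnamed cluster of 227 and 508 cells scored for upper follicle and suprabasal markers, so the 2 ratios compare different sets of cells. Over all cells Cxcl14 went from 628 to 255 CPM (log2 ratio -1.30), but with class levels weighted by the same cell shares in both libraries it was -0.69. The latter used the 24 classes of at least 30 cells in each library (97.9% of cells). It weights classes by cells, whereas the former weights them by UMIs. The share of outer root sheath cells, 19.7% in Control and 10.8% in Mutant, moved with the fall over all cells.

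Ccl27a encodes a keratinocyte chemokine that draws CCR10-bearing T cells to skin. Interfollicular basal cells had 742 and 791 CPM, suprabasal cells 339 and 314 CPM, and sebaceous gland cells 845 and 1012 CPM in Control and Mutant. Their log2 ratios of 0.09, -0.11 and 0.26 were all small. In the outer root sheath it fell from 136 to 58.8 CPM (-1.21, interval -1.36 to -1.07), the 1 member of 7 that fell there, beside 1.53% of all genes. The fall lay in the smaller of its clusters, led by Pthlh and Krt6a, with 276 and 71.4 CPM, while the larger had 55.9 and 49.2 CPM. With the libraries clustered separately the ratio was 0.26, and in thinned cells it was -0.62, so neither its size nor its direction is stable. Ccl27a shares sequence near its 3' end with Ccl27b (10.7% of 60-base words) and with predicted copies such as Gm20878 (20.8%). Its count may therefore be incomplete and its level is uncertain.

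Cxcl10 encodes a ligand of CXCR3 on activated T cells and is induced by interferons. In suprabasal cells it fell from 233 CPM (412 UMIs) to 23.9 CPM (90 UMIs), a log2 ratio of -3.28 (-3.63 to -2.95). One Control cell held 189 of these UMIs, and without the top cell of each library the levels were 128 and 20.6 CPM (-2.64). In inner root sheath, which moulds the growing shaft, it went from 111 to 52.9 CPM (-1.07), the 1 member at 100 CPM there, beside 1.62% of all genes that fell. With a stricter cell filter and clusters formed anew this ratio was 0.07, and with the libraries clustered separately it was 0.37. It was large under no alternative that changed the cells, the clusters or their weights, so neither its size nor its direction is stable, and the cause was not tested. The outer root sheath had 324 and 330 CPM, hair matrix 206 and 226 CPM and fibroblasts 101 and 132 CPM, which differed little. Basal cells had 104 and 56.3 CPM and sebaceous gland cells 182 and 132 CPM. A single Mutant basal cell held 120 of 466 UMIs. Without the top cell of each library the basal levels were 101 and 41.9 CPM (-1.27).

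Cxcl1 and Cxcl2 encode CXCR2 ligands that draw neutrophils. Cxcl1 did not pass the size rule in any of the 3 compared classes where it reached 100 CPM. It was at 596 and 854 CPM in fibroblasts, 383 and 661 CPM in dermal papilla and 189 and 259 CPM in outer root sheath. Its log2 ratios of 0.52, 0.79 and 0.45 had the same sign. In basal, suprabasal and sebaceous gland cells it was at 79.0 and 46.7, 39.1 and 16.8, and 96.2 and 48.5 CPM, lower in Mutant but under the level minimum. Cxcl2 rose by the rule in dermal papilla, from 40.7 to 184 CPM (2.18, interval 1.95 to 2.40). However, 96.0% of the 354 Mutant UMIs lay in 17 cells, and without the top 5% of each library the levels were 18.4 and 8.37 CPM, a ratio of -1.14. The share of thinned papilla cells with a Cxcl2 UMI was 3.65% and 4.59%. The Cxcl2 ratio in the papilla thus rested on these few cells.

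Ccl2 encodes the chief ligand of CCR2 on monocytes, and Ccl7, its neighbour on chromosome 11, encodes another. In fibroblasts Ccl2 rose from 1773 CPM (3967 UMIs) to 3906 CPM (11715 UMIs), by 1.14 (1.09 to 1.19). Ccl7 rose there from 323 to 1266 CPM, by 1.97 (1.86 to 2.09). These were 2 of 8 members, beside 3.58% of all genes that rose. Thinned shares were 33.7% and 44.2% of cells for Ccl2 and 15.1% and 32.2% for Ccl7 (40.1% and 50.7%, and 23% and 39.6%, before thinning), beside 0.252% and 0.516% of melanocytes for Ccl2. Both were detected together in 57 of 457 Control cells, where the product of the shares gives 23.3, and in 139 of 575 Mutant cells, where it gives 81.7. Fibroblasts formed 4 clusters, and Mutant cells had more Ccl2 in each, with 2876 and 4997, 1234 and 4959, 194 and 459, and 1377 and 2385 CPM. The cluster with 1234 and 4959 CPM held 67 Control and 173 Mutant cells.

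In dermal papilla Ccl2 rose from 256 CPM (1923 UMIs) to 2280 CPM (4388 UMIs), by 3.16 (3.08 to 3.24). Ccl2 and Cxcl2 were the 2 of 4 members that rose and Cxcl14 the 1 that fell, beside 9.33% and 8.45% of all genes. A single Mutant cell held 835 UMIs, and the highest 5% of cells held 77.7% of Mutant and 62.6% of Control UMIs. Leaving those out gave 108 and 607 CPM, a ratio of 2.5, so the direction did not rest on them. The share of cells with a Ccl2 UMI was 41.3% and 34.7% as counted and 14.4% and 27.9% after thinning. Depth differed here, with medians of 8716 UMIs per cell in Control and 3072 in Mutant. Ccl7 was at 2.79 and 41.1 CPM in papilla cells. In outer root sheath Ccl2 had the opposite sign, at 349 and 235 CPM (-0.57), and that class held 48.4% of all Control Ccl2 UMIs, against 56.4% of Mutant UMIs in fibroblasts.

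**Figure D4:**
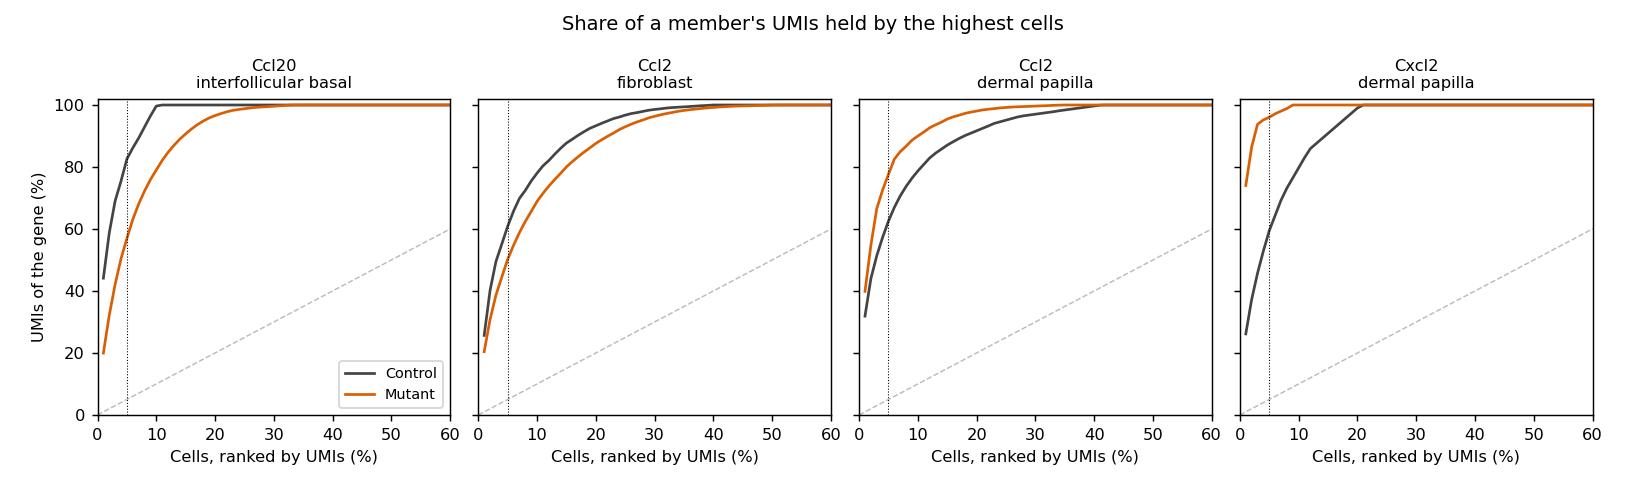
Share of a member's UMIs (vertical axis, %) held by the highest cells of a class (horizontal axis, % of cells ranked by UMIs), Control in grey and Mutant in orange. The dotted line marks 5% of cells and the dashed line equal UMIs in every cell. In dermal papilla, Mutant UMIs of Cxcl2 are almost all left of the dotted line, whereas for Ccl20 in basal cells the Mutant curve is the flatter one.

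Other stromal members had small ratios in their main classes. Ccl11, the eosinophil attractant eotaxin, was at 113 and 184 CPM in fibroblasts (0.71, interval 0.49 to 0.93). Fibroblasts held 94.7% of its Control UMIs and 81.1% of its Mutant UMIs. Cxcl12, which retains CXCR4-bearing cells in tissues, was at 161 and 116 CPM in fibroblasts and 160 and 141 CPM in outer root sheath. Dermal papilla cells had 64.7 and 12 CPM of Cxcl12, below the level minimum. Ccl21a, the lymph node homing ligand of CCR7, was at 19438 and 19806 CPM in lymphatic endothelial cells (194 and 125 cells), a ratio of 0.03 (-0.01 to 0.06). That class held 97.8% of Ccl21a UMIs in both libraries, and 81.0% and 85.6% of its thinned cells had a UMI, beside 1.42% and 1.15% of unthinned melanocytes. Ccl21a shares 65.1% of the 60-base words near its 3' end with Gm13304 and with Gm21541, so its count may be incomplete. The smaller stromal classes had wide differences in few cells. Smooth muscle or pericyte cells (57 and 80) had 136 and 2734 CPM of Ccl2, 548 and 3345 CPM of Cxcl1 and 58.9 and 1214 CPM of Cxcl2. They also had 17.7 and 291 CPM of Ccl11, the latter its highest level in a Mutant class. Lymphatic endothelial cells had 474 and 1500 CPM of Ccl2 and 574 and 1538 CPM of Cxcl2. Schwann cells (52 and 74), the glia of nerves, were the reverse for Ccl2, with 188 Control and 3 Mutant UMIs (1763 and 18.4 CPM).

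Leukocytes made a separate set. Xcl1, which attracts XCR1-bearing dendritic cells, was the leading member of dendritic epidermal T cells, the resident gamma-delta T cells of mouse epidermis, at 2364 CPM in Control and 1614 CPM in Mutant. That ratio of -0.55 (-0.61 to -0.50) was not large. Under the alternatives it ranged from -1.80 with the libraries clustered separately, where it was large, to -0.053 with doublets kept. With doublets kept, the clusters named as this class held 1260 Control and 9 Mutant cells, and 704 and 28. Clusters of 19 and 638 and of 6 and 391 cells went unnamed, so that value rests on few Mutant cells. UMIs were found in 75.1% and 57.2% of thinned cells (79.5% and 58.2% before, beside 3.13% and 0.678% of melanocytes). The class was split by library into clusters of 1251 and 8, 30 and 1034, 840 and 42, and 220 and 1 cells, so cluster and library cannot be told apart. Over all cells Xcl1 fell from 136 to 46.1 CPM (-1.56), while the share of the class among cells was 17.2% and 9.83%, and the ratio was -0.61 with equal class shares. Over all cells 2 of 9 members rose (Ccl20 and Cxcl16) and 2 fell (Cxcl14 and Xcl1), beside 3.32% and 3.01% of all genes (6.32% either way).

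The inflammatory CC members came from few cells. Ccl5 was at 12493 and 12664 CPM in the 15 and 23 cells like NK cells, which held 47.8% and 48.7% of its UMIs. Ccl3 and Ccl4, macrophage inflammatory proteins that attract leukocytes, were at 1890.5 and 1498 CPM and at 3193 and 1235 CPM in the same cells. An unnamed T cell subcluster that scored for both alpha-beta and regulatory T cell markers (209 and 86 cells) had 317 and 4.43 CPM of Ccl3, the latter from 1 UMI, and 299 and 814 CPM of Ccl5. Ccl6, Ccl8 and Ccl9 came mostly from an unnamed cluster of 37 and 48 cells that mixed macrophage and mast cell markers. The mix of such cells differed between libraries, as described below. That cluster had 765 and 1305 CPM of Ccl8 and 2448 and 6737 CPM of Cxcl2, the highest Cxcl2 level in each library. Ccl5 in that cluster was at 1498 CPM in Mutant and had no UMI in Control, which allows up to 21.9 CPM (3 counts). Type 17 lymphocytes (303 and 83 cells) had 1717 and 753 CPM of Cxcl2. Langerhans cells (70 and 77), the dendritic cells of the epidermis, had 775 and 1885 CPM of Cxcl2, from 1408 and 1463 UMIs. Their median depth was 18184 UMIs per cell in Control and 4314 in Mutant, so similar counts gave unlike CPM. They also had 36.4 and 1124 CPM of Ccl20, but their Ccl27a, a keratinocyte gene, was at 453 and 363 CPM, and how much of either came from neighbouring keratinocytes was not tested.

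**Figure D5:**
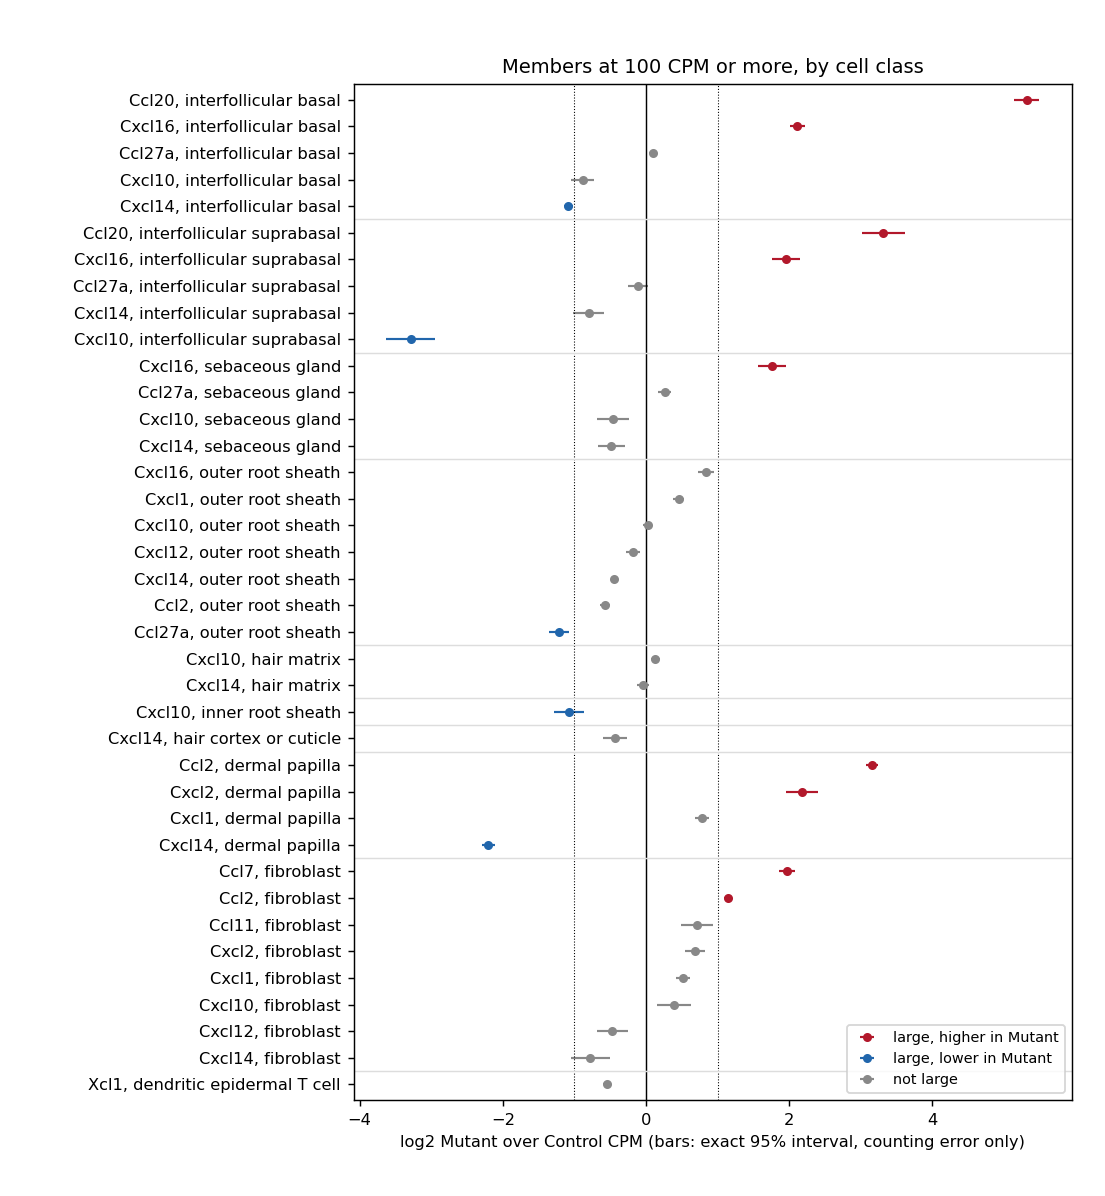
Log2 ratio of Mutant over Control CPM with its exact 95% interval for the 38 pairs of member and class at 100 CPM or more, grouped by class from top to bottom. Dotted lines mark a 2-fold difference, red points are the 9 that rose and blue points the 5 that fell. Ccl20 in basal cells is farthest to the right and Cxcl10 in suprabasal cells farthest to the left.

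The other 13 kept members stayed below 100 CPM in every class of at least 30 cells, with highest levels from 4.85 to 66.4 CPM. They were Ccl1, Ccl17, Ccl19, Ccl22, Ccl24, Ccl25, Ccl27b, Ccl28, Cx3cl1, Cxcl5, Cxcl9, Cxcl13 and Cxcl15. Some were still narrow in source. Fibroblasts held 90.9% and 98.7% of the UMIs of Ccl19, another CCR7 ligand that shares sequence with Gm2564 and is uncertain in level, and melanocytes held 92.7% and 100% of the few Cxcl15 UMIs. Langerhans cells held 58.3% and 71.4% of those of Ccl22, a ligand of CCR4. Cx3cl1, the membrane-bound fractalkine, was highest in the outer root sheath at 15.6 and 16.7 CPM.

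Receptors of CXCL16, CCL20 and CCL2 were highest in lymphocytes. Of 23 receptor genes, all in the matrices, only 1 reached 100 CPM in fibroblasts and 1 in dendritic epidermal T cells. None did in the other compared classes, so few ratios could be called. Ackr3, a scavenger of CXCL12, rose in fibroblasts from 74.6 to 156 CPM (1.06), beside 3.58% of all genes. It was the 1 receptor with a large ratio in a compared class. Cxcr6, the CXCL16 receptor, was at 302 and 336 CPM in dendritic epidermal T cells and 673 and 792 CPM in type 17 lymphocytes. Ccr6, the CCL20 receptor, was found at 57.7 and 50.2 CPM in type 17 lymphocytes, from 40 and 9 UMIs. Ccr2, the receptor of CCL2 and CCL7, was at 270 and 469 CPM in the same lymphocytes. Over all cells Xcr1 had 4 and 9 UMIs, Cxcr3 27 and 17, Cxcr2 36 and 26, and Ccr10 61 and 26, so receptors of the XCL1, CXCL10, CXCL1 and CCL27 ligands were barely sampled. Ackr3 and Ackr4, which scavenge CXCL12 and the CCR7 ligands, were lower in Mutant basal cells at 74.5 and 16.5 and at 43.5 and 9.06 CPM, under the level minimum.

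Regulators of chemokine genes were read by the same rule. Of 14 NF-kB pathway genes 8 reached 100 CPM in basal cells and 2 rose, Rela from 103 to 240 CPM and Tnip1 from 28.4 to 110 CPM (median log2 ratio of the 8, 0.63, beside 0.02 for all genes). Beside the 19% of all genes with a large ratio in basal cells, 2 of 8 is near the background. In suprabasal cells the same 2 rose and the feedback inhibitor Nfkbia (4560 and 1899 CPM) and Nfkbiz (407 and 183 CPM) fell, where 11.6% of all genes rose and 10.4% fell. Fibroblasts had 3 that rose of 7, among them Nfkb1 (311 to 646 CPM), beside 3.58% of all genes, and dermal papilla 3 of 4 (Nfkb1 from 112 to 377 CPM, Nfkbiz from 231 to 670 CPM and Rel from 67.4 to 138 CPM), beside 9.33%. Dendritic epidermal T cells had 2 of 6 that fell, Nfkbia from 1179 to 414 CPM and Rel from 359 to 128 CPM, beside 7.87% of all genes. Nfkbia also fell in melanocytes.

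Of 7 regulators of chemokine mRNA stability all reached 100 CPM in basal cells, where the decay factors Zfp36 (708 to 242 CPM) and Zfp36l2 (368 to 89.6 CPM) fell and Ptgs2 (236 to 1172 CPM) rose, beside 19% of all genes either way. Ptgs2 encodes a prostaglandin synthase, and its mRNA is itself a known target of such decay factors. The same 3 genes passed in the same directions in suprabasal cells (22.1% of all genes). In fibroblasts 2 of 6 rose, Ptgs2 and Zfp36l1, beside 3.58% of all genes. The interferon list of 10 genes had 1 member at 100 CPM in basal cells, the transcription factor Irf1, which fell from 155 to 29.4 CPM. Irf1 was also the 1 such member in suprabasal cells and sebaceous gland, where it fell from 127 to 12 CPM and from 158 to 65.8 CPM. Of all genes, 9.93%, 10.4% and 9.69% fell in these 3 classes. In fibroblasts 1 of 2 rose, Gbp2 from 23.2 to 133 CPM, beside 3.58% of all genes. The 1 member at 100 CPM in outer root sheath and in dermal papilla had no large ratio. Of 19 inducers and receptors of inducers, 16 were in the matrices, and few reached 100 CPM. In basal cells 2 of 2 fell, Ifngr1 (118 to 47.5 CPM) and Tnfrsf1a (127 to 57.6 CPM), beside 9.93% of all genes. In suprabasal cells 1 of 2 fell, Il17rc (122 to 42.6 CPM), beside 10.4%. In dendritic epidermal T cells 1 of 3 fell, Tnf (120 to 48.1 CPM), beside 7.87%. The 1 at that level in dermal papilla had no large ratio. The part of these genes in the members' levels was not tested.

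The 8 members with a large ratio lie on 5 chromosomes of GRCm38 by the GENCODE vM21 annotation, all as protein-coding genes. Ccl2 (chr11:82035571-82037453) and Ccl7 (chr11:82045712-82047525), both on the plus strand, are neighbours in the CC cluster. Cxcl2 (chr5:90903871-90905938, plus strand) sits beside Cxcl1 (chr5:90891241-90893115, plus strand), and Cxcl10 (chr5:92346638-92348889, minus strand) lies farther along the same chromosome. Ccl20 (chr1:83116766-83119167, plus strand), Ccl27a (chr4:41769467-41774247, minus strand), Cxcl14 (chr13:56288643-56296551, minus strand) and Cxcl16 (chr11:70453983-70459984, minus strand) stand apart from them. In dermal papilla the neighbours Cxcl2 and Cxcl1 had log2 ratios of 2.18 and 0.79, and a difference between genes was not tested. RefSeq and GENCODE place the start of Cxcl1 and of Cxcl2 at different bases, so those promoter windows reach into the GENCODE gene.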

How the data were processed

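Single cells were profiled with 10x 3' v3 chemistry, per the labels' protocols. The deposited values are UMI counts per gene and barcode in 1 matrix per group, made by the authors with Cell Ranger 3.0.2 on mm10, with Seurat also named, per the submitters' processing notes. The files hold UMI counts of 16973 Control and 13411 Mutant barcodes (140880809 and 97817173 UMIs), and 0 columns of per-sample values were left out.

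Barcodes with under 500 genes (2430 Control, 1396 Mutant) or over 15% mitochondrial UMIs (387, 560) were removed. Scrublet calls above a score of 0.2 were removed as doublets (516 and 412 cells, 3.65% and 3.60%), a score set after seeing the data because the automatic one failed in Control. Cells were scaled to 10000 counts, and 2000 variable genes without chemokine, cell cycle and sex-linked genes gave 30 components, 15 neighbours and Leiden clusters at resolution 1 (0.5 within lymphocytes), with scanpy 1.11.5 and leidenalg 0.10.2 in Python 3.11.15. Clusters were named from marker sets by their mean score and lead. A cluster mixing basal and T cell markers (1.19% of Control and 0.0996% of Mutant cells) was left out of the basal class by a rule set after seeing the data.

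UMIs were summed per class and divided by the class total (CPM). Intervals are exact at 95% (Poisson for levels, conditional for ratios, Clopper-Pearson for shares of cells) and cover counting error only, since no barcode is tied to an animal and genotype, tamoxifen start and library cannot be told apart. Thinned shares use cells cut to 1500 UMIs. Ratio scripts were tested on simulated counts. Scaling factors of edgeR 4.0.16 (TMM) and DESeq2 1.42.0 were alternatives, with other filters, clusterings, weights and level minimums.

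Members were described in full where a ratio was large in a compared class or the level reached 100 CPM in any class; of the regulator and receptor lists, those with large ratios and the receptors of described ligands. The members and lists were chosen with earlier results of these data known.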

Additional observations from a re-analysis of the deposited data

Results flagged for a closer look

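For 3 members the sign of the ratio differed between classes, with the interval of each ratio on its own side of 0. The differences between classes were not tested, and the small ratios change sign under some alternatives (Ccl27a in basal cells from -0.16 to 0.53, Cxcl10 in fibroblasts from -0.19 to 0.86). Ccl2 had a log2 ratio of -0.57 in outer root sheath cells (349 and 235 CPM in Control and Mutant), whereas it rose in fibroblasts (1.14) and dermal papilla (3.16). Ccl27a had ratios of 0.093 in interfollicular basal keratinocytes and 0.26 in sebaceous gland cells, whereas it fell in the outer root sheath (-1.21). Cxcl10 had ratios of 0.13 in hair matrix and 0.39 in fibroblasts, whereas it fell in suprabasal keratinocytes (-3.28) and inner root sheath (-1.07).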

How the results depend on the processing

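No paired analysis was possible because each group is 1 pooled matrix whose barcodes carry no sample or replicate number, and for the same reason no sample could be left out. The 9 pairs of member and class that rose became 37 with no level minimum and 25 with classes of at least 50 cells (23 classes). The 5 that fell became 29 and 22 under those settings, 9 at a minimum of 50 CPM, 3 at 200 CPM, 3 with each library clustered on its own (7 classes compared), 2 when clusters were formed without genes of large ratio (8 classes) and 3 with thinned cells (8 classes). Over all cells, the 2 members that rose were 0 at 200 CPM and 13 with no minimum, and the 2 that fell were 1 at 200 CPM and 0 with equal class shares. Under these settings neither the number of pairs compared nor the share over all genes was computed. The counts therefore show dependence on the setting and do not set the members apart from other genes.

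Of 435 values of single members under alternatives, 232 stayed within the main interval, 199 moved outside it and 4 reversed a large ratio. These were Cxcl10 in inner root sheath, at 0.066 with the stricter cell filter and 0.37 with separate clustering, Ccl27a in outer root sheath, at 0.26 with separate clustering, and Cxcl2 in dermal papilla, at -1.14 without the highest 5% of cells, a setting chosen after seeing the data. The cause was not tested except for the last, which removes the cells that held the UMIs. Over its alternatives Ccl20 ranged from 3.13 to 6.50 in basal and from 1.84 to 4.08 in suprabasal cells, Cxcl16 from 1.22 to 2.43 in basal cells, Ccl2 from 2.5 to 3.34 in dermal papilla, Ccl7 from 1.61 to 2.47 in fibroblasts and Cxcl14 from -2.43 to -2.10 in dermal papilla. Keeping the mixed cluster in the basal class, also chosen after seeing the data, left its 3 large ratios large. TMM and DESeq2 factors moved the median of all genes by 0.31 and 0.30 in basal, 0.47 and 0.50 in suprabasal, 0.17 and 0.21 in fibroblast and 0.17 and 0.15 in melanocyte sums, and by up to 0.13 elsewhere. All 14 large ratios kept their direction under both and 13 stayed large, the exception being Cxcl14 in basal cells (-0.77 and -0.78), but small ratios such as Ccl27a in suprabasal cells (-0.11, and 0.36 with TMM) did not. With 1 library a group, variation between mice was not measured.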

Other observations

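Cxcl10 was also lower in Mutant than in Control in several smaller classes. Upper follicle cells had 230 and 78.3 CPM, type 17 lymphocytes 323 and 66.9 CPM, Langerhans cells 175 and 45.1 CPM and Schwann cells 1003 and 473 CPM. The unnamed cluster with macrophage and mast cell markers had the opposite order, at 124 and 550 CPM. That cluster also had more of other inflammatory members in Mutant, with Ccl3 at 226 and 1396 CPM, Ccl4 at 94.7 and 1819 CPM, Ccl6 at 87.4 and 688 CPM and Ccl9 at 131 and 555 CPM. Its Ccr1, a receptor of several of these, was at 72.9 and 178 CPM. It held 37 and 48 cells in the main clustering. When clusters were formed without genes of large ratio, a macrophage-like cluster held 14 Control and 44 Mutant cells. A mast-cell-like cluster held 26 and 6. The mix of such cells thus differed between libraries, and its part in these levels was not tested.

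In the unnamed cluster led by Slc39a10, Flrt2 and Fgf5 (327 Control and 177 Mutant cells), which includes the targeted gene among its leading genes, Fgf5 was at 101.7 CPM in Control and 162 CPM in Mutant. Cxcl1 was at 185 and 612 CPM in the same cells.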
